A study of Mus musculus with 6 samples.

Results

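The genes described here encode the uptake of glucose and its conversion to lactate: Slc2a1, Hk1, Hk2, Pfkl, Pfkp, Pfkfb3, Aldoa, Pgk1, Eno1 and Ldha. They were taken by name as 10 of 18096 named genes, and every probe set that the signal table assigns to one of them by gene ID or gene name was included, 30 of 45101. RNA came from conjunctival epithelium of 8-week-old Spdef -/- mice and of Spdef +/+ mice, all on a C57BL/6 background. Each genotype had 3 Affymetrix arrays. The Spdef product is an ETS transcription factor of mucus-secreting cells, and the labels do not say how the null allele was made. Each array held laser-captured epithelium from the 40% next to the fornix, in sections of 6 µm, and pooled 2 eyes, of which a male and a female mouse each gave 1. The comparison is between the genotypes, gene by gene.

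Glycolysis splits glucose into pyruvate in the cytosol. Its early steps spend ATP, and its later steps, from Gapdh onward, return ATP and NADH. Lactate dehydrogenase then turns pyruvate into lactate and restores NAD. Stratified surface epithelia use glycolysis heavily, and dividing cells also draw on its intermediates for biosynthesis.

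Of the 10 genes, 6 had at least 1 probe set that was higher in Spdef -/- than in Spdef +/+, and none had one that was lower. The share of all genes with at least 1 such probe set was not counted. With 1 probe set per gene, 5 of the 9 members tested were higher and 0 lower, against 15.8% and 24.0% of all tested genes. Pgk1 had the largest called difference, 1.84-fold higher on its brightest probe set, followed by Eno1, Pfkp, Hk2, Ldha and Hk1 at 1.26-fold to 1.48-fold. The glucose transporter gene Slc2a1, the phosphofructokinase genes Pfkl and Pfkfb3, and the aldolase gene Aldoa had no called probe set. Signals are in linear dChip units, and a log2 difference is Spdef -/- minus Spdef +/+. A probe set was tested if it was called Present on at least 3 of the 6 arrays, and it counted as called at an adjusted p under 0.05 in limma over 24533 probe sets. Of the 24 member probe sets tested, 9 were called higher and 0 lower, where 32.3% of all tested probe sets were called, 12.5% higher and 19.8% lower. Probe sets of the same gene are not independent, and 7 of the 24 list several gene IDs, among them all 3 of Pgk1. The median log2 difference was 0.34 for the members tested and -0.07 for all tested probe sets. Nothing in these data separates more RNA per cell from a changed make-up of cell types.

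**Figure D1:**
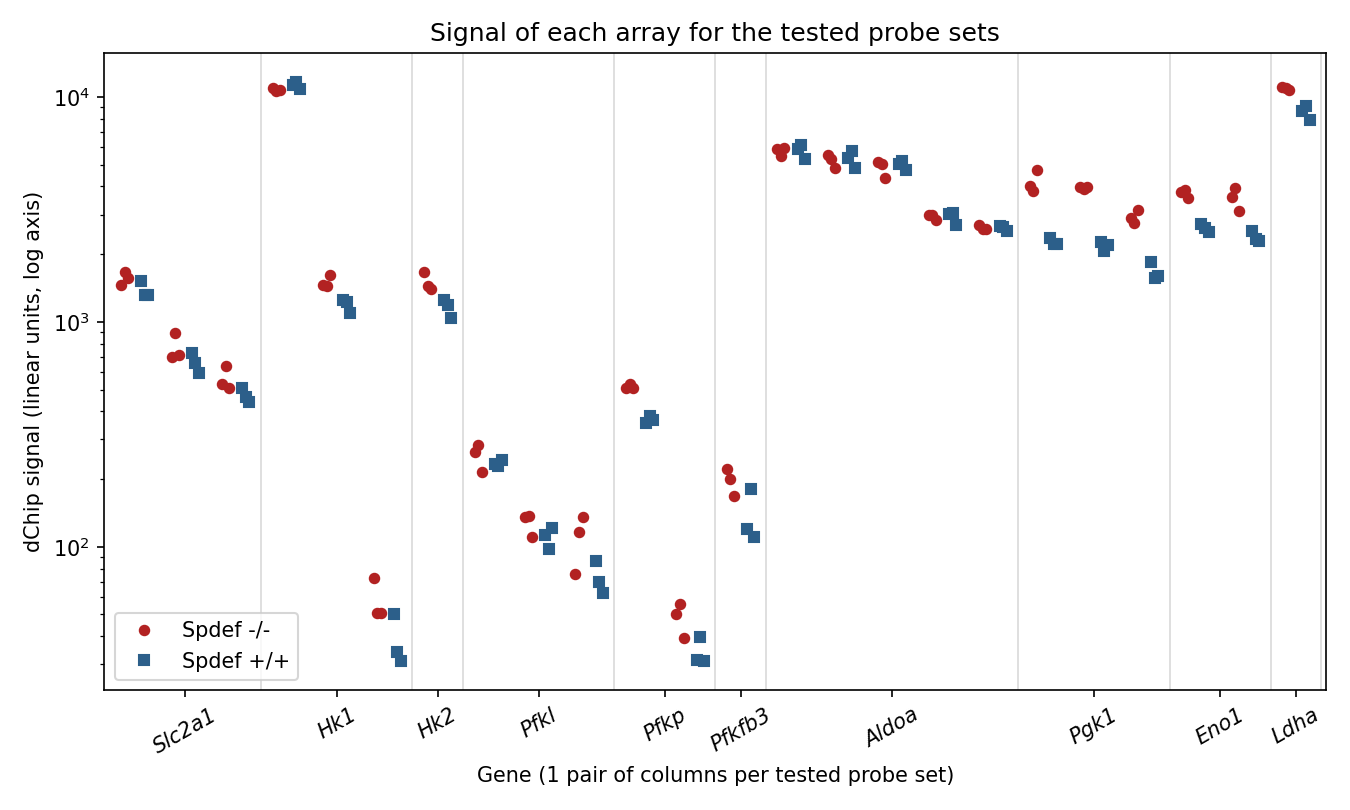
Signal of each array (log axis, linear dChip units) for the 24 tested probe sets of the 10 genes, 1 point per array, Spdef -/- left and Spdef +/+ right of each pair. The 3 Pgk1 probe sets show separate groups, with 2761 to 4748 in Spdef -/- against 1567 to 2361 in Spdef +/+, while the 5 Aldoa probe sets overlap.

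The targeted gene, Spdef, read 1, 3.62 and 2.94 in Spdef -/-, against 801, 689 and 587 in Spdef +/+ (adjusted p = 0.000152 by limma). Log2 signals of arrays correlated across probe sets at 0.953 to 0.968 within a genotype and at 0.934 to 0.949 between genotypes. Fewer probe sets were called Present on Spdef -/- arrays, 23290 to 23370, than on Spdef +/+ arrays, 24589 to 24833.

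Pgk1, Eno1, Pfkp and Ldha, which were higher together, are shown with the bases around an annotated start site, and Aldoa is shown beside them as a member that did not pass. The windows run from 250 bases before to 50 after the start (RefSeq, GRCm38.p6), read 5′ to 3′ on the gene's strand. Capitals mark ACGTG or GCGTG on either strand, the core letters of the hypoxia response element bound by HIF factors. For a gene with several windows the one with the most such matches is shown, the lowest coordinate in a tie.
Pgk1 (chrX:106186850-106187149, + strand): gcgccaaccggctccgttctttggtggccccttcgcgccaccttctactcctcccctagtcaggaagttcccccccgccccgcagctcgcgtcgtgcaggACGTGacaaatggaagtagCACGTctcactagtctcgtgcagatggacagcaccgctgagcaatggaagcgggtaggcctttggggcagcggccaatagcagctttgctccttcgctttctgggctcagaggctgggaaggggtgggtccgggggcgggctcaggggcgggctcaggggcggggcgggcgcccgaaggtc
Eno1 (chr4:150236458-150236757, + strand): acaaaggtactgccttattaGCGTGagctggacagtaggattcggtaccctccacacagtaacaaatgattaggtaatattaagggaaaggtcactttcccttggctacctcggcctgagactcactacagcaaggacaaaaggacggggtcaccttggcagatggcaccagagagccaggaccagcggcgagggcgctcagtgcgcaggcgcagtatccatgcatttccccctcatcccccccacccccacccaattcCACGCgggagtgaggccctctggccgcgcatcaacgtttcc
Pfkp (chr13:6648722-6649021, - strand): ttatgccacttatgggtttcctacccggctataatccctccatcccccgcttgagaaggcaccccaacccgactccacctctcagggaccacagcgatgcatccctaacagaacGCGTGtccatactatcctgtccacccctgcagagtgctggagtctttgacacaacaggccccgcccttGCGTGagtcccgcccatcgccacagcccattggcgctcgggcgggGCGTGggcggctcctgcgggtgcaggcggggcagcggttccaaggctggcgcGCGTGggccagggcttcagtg
Ldha (chr7:46845554-46845853, + strand): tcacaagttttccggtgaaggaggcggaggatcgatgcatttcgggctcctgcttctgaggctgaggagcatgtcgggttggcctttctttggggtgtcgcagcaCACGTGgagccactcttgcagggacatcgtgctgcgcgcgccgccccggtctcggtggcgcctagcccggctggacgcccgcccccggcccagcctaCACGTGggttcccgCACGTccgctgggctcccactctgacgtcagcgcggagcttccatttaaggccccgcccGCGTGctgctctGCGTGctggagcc
Aldoa (chr7:126799129-126799428, - strand): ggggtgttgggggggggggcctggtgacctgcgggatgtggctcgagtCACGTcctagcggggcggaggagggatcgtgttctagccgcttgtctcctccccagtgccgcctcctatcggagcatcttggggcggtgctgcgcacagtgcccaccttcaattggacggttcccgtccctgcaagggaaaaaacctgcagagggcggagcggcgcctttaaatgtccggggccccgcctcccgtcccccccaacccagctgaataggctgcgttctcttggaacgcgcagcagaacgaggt
Counting overlapping matches on both strands, Ldha held 7, Pfkp 4, Pgk1 2, Eno1 2 and Aldoa 1. By the same choice of window, the members not shown held 5 (Hk1) and 2 (Hk2) among those called higher, and 4 (Pfkfb3), 2 (Slc2a1) and 1 (Pfkl) among those not called, so the counts of called and uncalled members overlapped. All 10 genes matched the RefSeq table, and each had at least 1 window with one of the motifs, 15 of their 17 windows, against 43.8% of all 32851 windows and 46.7% of the 27025 genes. Both motifs contain CG, and the background was matched neither for base composition nor for windows per gene. The members had 17 windows for 10 genes, against 32851 for 27025, and more windows give a gene more chances of a match. Some windows of Aldoa and of Eno1 overlap and hold the same sites. ACGTG stood in windows of 7 of the 10 genes, against 21.8% of all genes. The E-box CACGTG, which contains ACGTG and is read on both strands, stood in windows of Ldha and Pfkfb3, against 8.09% of all genes. A match describes letters in a window and is no evidence of binding.

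Slc2a1 encodes the facilitative transporter GLUT1, which brings glucose across the plasma membrane. Its brightest probe set, 1434773_a_at, had signals of 1458, 1661 and 1559 in Spdef -/-, against 1512, 1310 and 1310 in Spdef +/+. The lowest Spdef -/- array lay below the highest Spdef +/+ array, so the groups overlapped. The log2 difference was 0.18 (95% interval -0.07 to 0.43, adjusted p = 0.225 by limma). The other Slc2a1 probe sets had log2 differences of 0.22 (adjusted p = 0.253) and 0.24 (adjusted p = 0.164), also with overlapping groups. A rise of up to 1.45-fold lies within the widest of these intervals.

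The hexokinases trap glucose in the cell by phosphorylating it, and Hk1 and Hk2 encode the forms that bind mitochondria. Hk2 (1422612_at) read 1664, 1438 and 1394 in Spdef -/-, against 1246, 1187 and 1036 in Spdef +/+. All Spdef -/- arrays lay above all Spdef +/+ arrays, and the gene was 1.30-fold higher (log2 difference 0.37 ± 0.12, SE, adjusted p = 0.0496 by limma). For Hk1, probe set 1437974_a_at read 1451, 1444 and 1608 in Spdef -/-, against 1254, 1220 and 1100 in Spdef +/+. It was 1.26-fold higher (log2 difference 0.33 ± 0.10, SE, adjusted p = 0.0411 by limma). A dim Hk1 probe set, 1420901_a_at, had 50.5 to 72.7 in Spdef -/-, against 30.9 to 50.2 in Spdef +/+, and did not pass (adjusted p = 0.0852 by limma). The third, 1436822_x_at, is also assigned to the ribosomal protein gene Rpl17 and cannot be read as Hk1 alone, with 10578 to 10940 in Spdef -/- and 10840 to 11651 in Spdef +/+. Both hexokinase calls were narrow. The call of Hk1 was lost without any 1 of the 6 arrays (adjusted p from 0.0738 to 0.105 by limma), and that of Hk2 without any 1 array other than Spdef -/- replicate 3 (adjusted p from 0.0483 to 0.134 over all 6).

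Phosphofructokinase commits sugar to glycolysis, and its subunits are encoded by Pfkl (liver type), Pfkp (platelet type) and Pfkm (muscle type). Pfkp (1416069_at) had signals of 510, 531 and 510 in Spdef -/-, against 355, 381 and 366 in Spdef +/+. The groups stood apart with little spread, at 517 ± 12.1 in Spdef -/- and 368 ± 12.8 in Spdef +/+ (SD, n = 3 arrays each), a 1.41-fold difference (log2 difference 0.49 ± 0.08, SE, adjusted p = 0.00628 by limma). It remained called without any 1 array (adjusted p from 0.0109 to 0.0355 by limma). A dim second Pfkp probe set, 1437759_at, had a log2 difference of 0.50 and did not pass (adjusted p = 0.0596 by limma), with 39.2 to 55.5 in Spdef -/- against 31.2 to 39.6 in Spdef +/+. Pfkl had log2 differences of 0.10, 0.21 and 0.55 on its 3 probe sets, all with overlapping groups (adjusted p from 0.12 to 0.555 by limma). Its brightest, 1439148_a_at, read 263, 284 and 215 in Spdef -/-, against 234, 229 and 242 in Spdef +/+. Pfkfb3 makes fructose 2,6-bisphosphate, an activator of phosphofructokinase. It read 221, 201 and 168 in Spdef -/-, against 120, 180 and 111 in Spdef +/+ (1416432_at). Spdef +/+ replicate 2, at 180, lay above the lowest Spdef -/- array, and the log2 difference of 0.55 did not pass (95% interval 0.05 to 1.04, adjusted p = 0.0857 by limma). Without that array the log2 difference of Pfkfb3 was 0.76 and passed (adjusted p = 0.0233).

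Aldoa encodes aldolase A, which splits fructose 1,6-bisphosphate. Its 5 probe sets had log2 differences of -0.04 to 0.01 with overlapping groups (adjusted p from 0.788 to 0.991 by limma), and their sign depended on the scaling and on single arrays. On the brightest, 1416921_x_at, the signals were 5846, 5482 and 5897 in Spdef -/-, against 5850, 6106 and 5274 in Spdef +/+. The 95% interval of that difference ran from -0.23 to 0.23 on the log2 scale, so a change of up to 1.17-fold in either direction is not excluded. Among the 5, 2 also list other gene IDs.

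Pgk1 encodes phosphoglycerate kinase 1, which makes the first ATP returned by the pathway. Its 3 probe sets all passed. Probe set 1417864_at had signals of 3960, 3897 and 3993 in Spdef -/-, against 2273, 2068 and 2190 in Spdef +/+, 1.82-fold higher (log2 difference 0.86 ± 0.08, SE, adjusted p = 0.0012 by limma). Probe set 1438640_x_at had 4007, 3812 and 4748 in Spdef -/-, against 2361, 2214 and 2221 in Spdef +/+ (1.84-fold, adjusted p = 0.00243), and 1439435_x_at was 1.76-fold higher (adjusted p = 0.0028). In each case the lowest Spdef -/- array lay well above the highest Spdef +/+ array, and each remained called without any 1 array (adjusted p from 0.00314 to 0.0145 by limma). All 3 also carry the IDs of Pgk1 pseudogenes, so Pgk1 could not be given 1 symbol and entered the fit across genes only when pseudogenes were passed over.

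Eno1 encodes alpha-enolase, which forms phosphoenolpyruvate. Probe set 1419023_x_at, which lists Eno1 alone, read 3764, 3847 and 3552 in Spdef -/-, against 2720, 2624 and 2499 in Spdef +/+. It was 1.42-fold higher (log2 difference 0.51 ± 0.09, SE, adjusted p = 0.00664 by limma). Probe set 1419022_a_at, shared with the near-identical gene Eno1b, read 3603, 3928 and 3115 in Spdef -/-, against 2531, 2341 and 2281 in Spdef +/+, 1.48-fold higher (adjusted p = 0.0114 by limma). Both remained called without any 1 array (adjusted p up to 0.0426 by limma). Signal from Eno1 and Eno1b cannot be told apart with certainty on this array.

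Ldha encodes the A subunit of lactate dehydrogenase, which reduces pyruvate to lactate. Its only probe set, 1419737_a_at, had signals of 11038, 10968 and 10679 in Spdef -/-, against 8656, 9074 and 7929 in Spdef +/+. The groups did not overlap, and Ldha was 1.28-fold higher (log2 difference 0.35 ± 0.09, SE, adjusted p = 0.0265 by limma). In the fit across probe sets the call of Ldha was lost without Spdef -/- replicate 1 or 2 or Spdef +/+ replicate 1 or 3 (adjusted p from 0.0364 to 0.0856 over the 6 arrays left out).

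Of the 6 member probe sets that were not tested, 2 belong to Pfkfb3, 1 to Pfkp and 3 to Eno1, and 3 of these were Present on no array. Their signals were 6.94 to 37.1 in Spdef -/- and 4.06 to 31.5 in Spdef +/+. Among the tested ones, 10 had all Spdef -/- arrays above all Spdef +/+ arrays and 0 had them all below, where the share of all tested probe sets was 20.0% above and 30.1% below. The median SD of log2 signal between arrays was 0.113 for Spdef -/- and 0.104 for Spdef +/+. With arrays centred on their bacterial control probe sets, 2 of the 24 were called, both of Pgk1, and the calls of Eno1, Pfkp, Ldha, Hk1 and Hk2 were lost (adjusted p from 0.282 to 0.604 by limma). Their log2 differences stayed positive, at 0.42 for Eno1 (1419023_x_at), 0.40 for Pfkp (1416069_at), 0.26 for Ldha, 0.24 for Hk1 (1437974_a_at) and 0.29 for Hk2. Those controls averaged 12.17 (log2) on Spdef -/- replicate 3, against 11.53 to 11.86 on the other arrays. Under the same centring, Pgk1 probe set 1439435_x_at also lost its call (adjusted p = 0.0628 by limma). Pgk1 probe set 1417864_at kept its call only narrowly, at an adjusted p that rounds to 0.05 by limma.

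**Figure D2:**
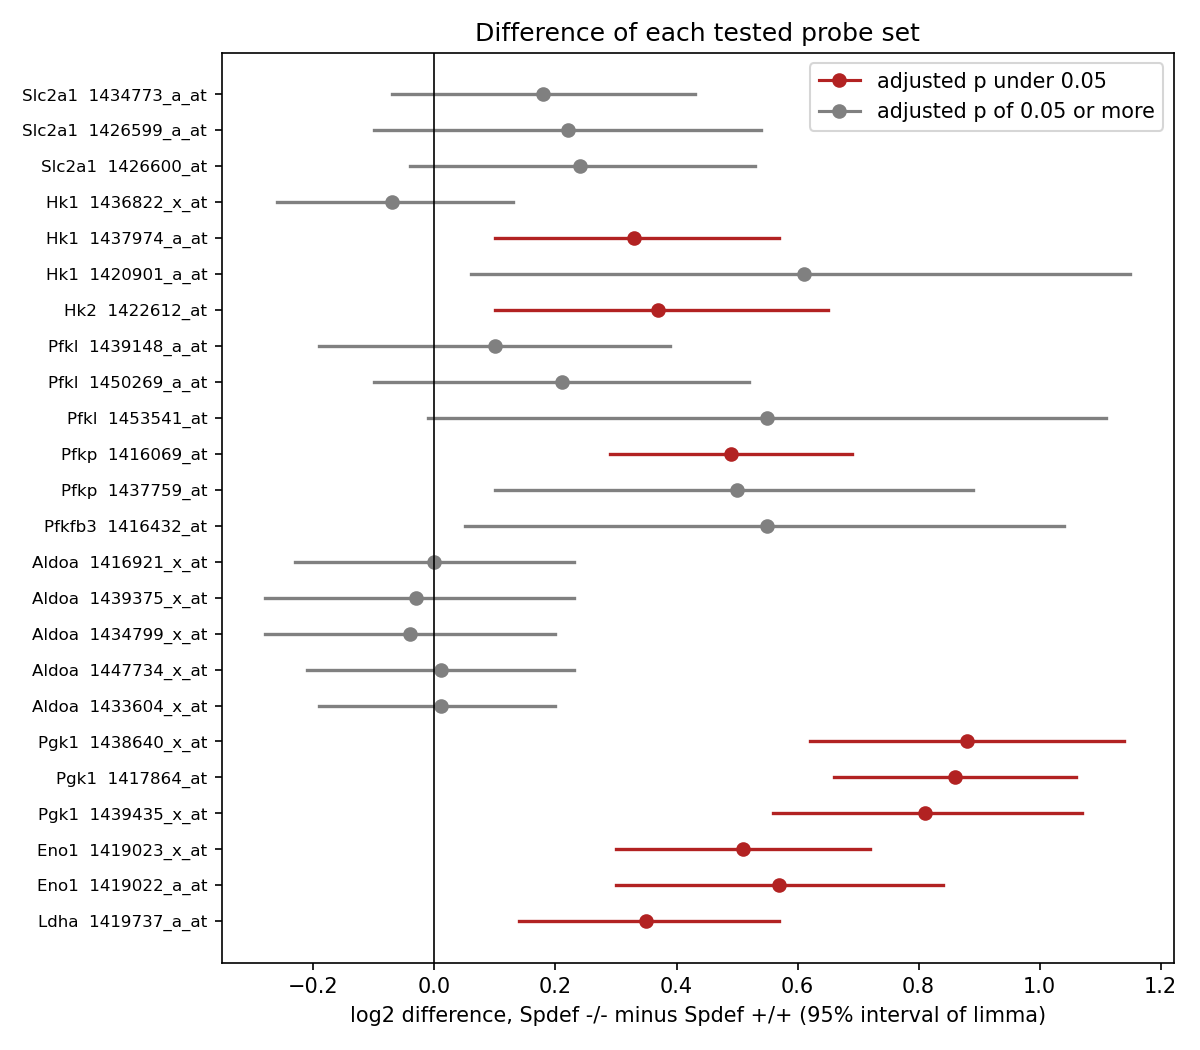
Log2 difference (Spdef -/- minus Spdef +/+, point) with its 95% interval (line) for each tested probe set of the 10 genes. The probe sets of Pgk1 sit at 0.81 to 0.88 and those of Aldoa at -0.04 to 0.01.

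In the fit across 11899 genes, where the brightest tested probe set with 1 symbol stood for its gene, 5 of the 9 members tested were higher (Hk1, Hk2, Pfkp, Eno1 and Ldha) and 0 lower. Of all tested genes 39.7% were called, 15.8% higher and 24.0% lower. The median log2 difference was 0.35 for the 9 members, against -0.06 for all tested genes. The lists below use the same fit. The count of 5 fell to 2 without Spdef -/- replicate 1 or Spdef +/+ replicate 1, to 3 without Spdef -/- replicate 2 or Spdef +/+ replicate 3, and to 0 with centring on bacterial controls.

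Among the enzymes between and beside the members, calls went both ways. Of 12 other glycolysis enzymes tested, 2 were higher and 2 lower, a share of 33.3% called against 39.7% of all tested genes. Their median log2 difference was -0.01. Gapdh and Pgam1, described below, are not among these 12. Pkm, the pyruvate kinase that forms pyruvate, read 2464, 2424 and 2881 in Spdef -/-, against 1608, 1607 and 1497 in Spdef +/+ (log2 difference 0.72, adjusted p = 0.00215 by limma). Pfkfb4, a second enzyme of fructose 2,6-bisphosphate, had 946, 822 and 862 in Spdef -/-, against 500, 509 and 456 in Spdef +/+ (log2 difference 0.84, adjusted p = 0.00107 by limma). The groups were separate for both genes. Eno3, the muscle enolase, had 62.4, 60.8 and 58.9 in Spdef -/-, against 117, 116 and 151 in Spdef +/+ (adjusted p = 0.00128 by limma). Pfkm had 227, 278 and 313 in Spdef -/-, against 403, 322 and 393 in Spdef +/+, and was called only narrowly (adjusted p = 0.0495 by limma, 0.119 without Spdef -/- replicate 1). The call of Pfkm was also lost without Spdef -/- replicate 2 (adjusted p = 0.0938), Spdef +/+ replicate 1 (0.146) or Spdef +/+ replicate 3 (0.129).

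Gpi1, which follows hexokinase, had a log2 difference of -0.02 (adjusted p = 0.844), and Tpi1, which follows aldolase, one of 0.18 (adjusted p = 0.135 by limma); both were chosen after their values were seen. Gapdh and Pgam1 have only probe sets shared with other gene IDs. Like Pgk1, they entered the fit across genes only when pseudogenes were passed over, an alternative chosen after the data were seen. Gapdh (1418625_s_at) then had 8029, 8031 and 8003 in Spdef -/-, against 5970, 6095 and 6025 in Spdef +/+ (log2 difference 0.41, adjusted p = 0.00452 by limma). Pgam1, the mutase between Pgk1 and enolase, had 2219, 2435 and 2498 in Spdef -/-, against 1618, 1532 and 1403 in Spdef +/+ (log2 difference 0.65, adjusted p = 0.00263 by limma). With these included, 4 of the other glycolysis enzymes were higher and 2 lower. The 3 Gapdh control probe sets of the array, which lie toward the 5′ end, in the middle and toward the 3′ end of the transcript, had log2 differences of 0.59, 0.56 and 0.44 and were not tested.

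**Figure D3:**
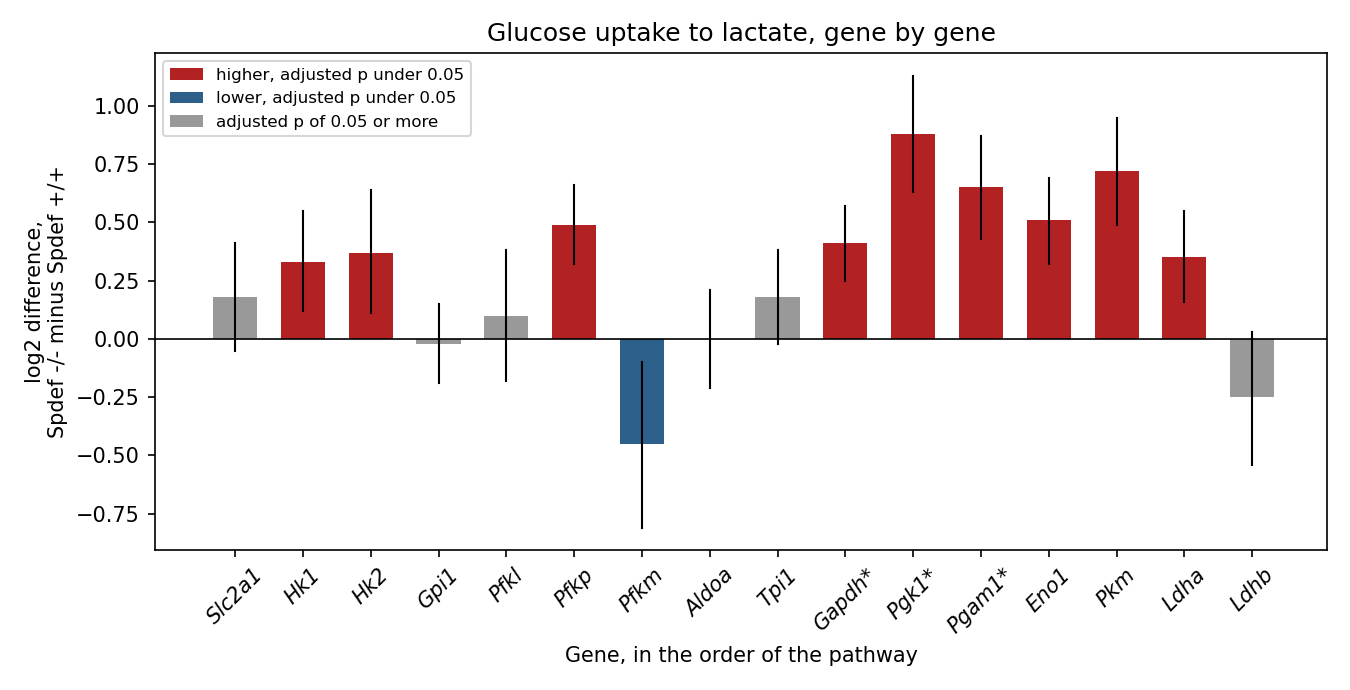
Log2 difference (Spdef -/- minus Spdef +/+) of the probe set that stands for each gene, ordered from glucose uptake to lactate, with 95% intervals of limma as lines. Genes with an asterisk entered the fit across genes only when pseudogenes were passed over in naming. Gapdh, Pgk1, Pgam1, Eno1, Pkm and Ldha lie at 0.35 to 0.88 and Gpi1 and Aldoa at -0.02 and 0.

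Of 9 other transporters and hexokinase relatives tested, 2 were higher and 2 lower. Slc2a10, a glucose transporter gene among these 9 and named after its values were seen, was not called. The probe set that stood for it had a log2 difference of -0.16 (adjusted p = 0.683 by limma). The authors' deposited comparison lists a different Slc2a10 probe set as lower in Spdef -/-, with a signed fold score of -5.43. Why these Slc2a10 probe sets differ was not tested. Slc5a1, the sodium-coupled glucose transporter SGLT1, had 3306, 2652 and 1796 in Spdef -/-, against 1236, 1334 and 1445 in Spdef +/+ (log2 difference 0.91, adjusted p = 0.0181 by limma). The Spdef -/- arrays varied widely but all lay above the Spdef +/+ arrays, and the call of Slc5a1 was lost without Spdef -/- replicate 2 (adjusted p = 0.0519), Spdef +/+ replicate 1 (0.0619) or Spdef +/+ replicate 2 (0.0528). Slc2a8, an intracellular hexose transporter, had 146, 134 and 158 in Spdef -/-, with no Present call, against 274, 272 and 311 in Spdef +/+ (adjusted p = 0.000944 by limma). Of 3 monocarboxylate transport genes tested, 1 was higher and 1 lower. Slc16a1, the lactate transporter MCT1, read 65.5, 81.9 and 60.8 in Spdef -/-, against 21.4, 56.2 and 17.7 in Spdef +/+ (adjusted p = 0.0474 by limma), and was Present on 1 Spdef +/+ array. Its call was lost without any 1 array other than Spdef +/+ replicate 2, whose 56.2 was the highest of its group (adjusted p of Slc16a1 from 0.0785 to 0.135). Emb, a partner of such transporters, read 1206, 1465 and 1732 in Spdef -/-, against 2706, 2304 and 2296 in Spdef +/+ (adjusted p = 0.0094 by limma). Slc16a3, the transporter MCT4, was not among the tested genes.

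Of 14 genes of the mitochondrial pyruvate carrier, pyruvate dehydrogenase with its kinases and phosphatases, and pyruvate carboxylase, 3 were higher and 3 lower, a share of 42.9% called against 39.7% of all tested genes. The 3 higher genes, Dlat, Dld and Pdhx, encode parts of the pyruvate dehydrogenase complex, and the lower ones were Mpc1, Pdk1 and Pdk2. Mpc1, a subunit of the mitochondrial pyruvate carrier, had 812, 871 and 669 in Spdef -/-, against 1430, 1149 and 1500 in Spdef +/+ (log2 difference -0.79, adjusted p = 0.00681 by limma). Pdk2, a kinase that inhibits pyruvate dehydrogenase, had 64.4, 62.6 and 52.2 in Spdef -/-, against 161, 151 and 165 in Spdef +/+ (log2 difference -1.42, adjusted p = 0.00034 by limma). Both were thus lower with separate groups, whereas Dld, a component of pyruvate dehydrogenase, had 425, 374 and 358 in Spdef -/-, against 282, 262 and 295 in Spdef +/+ (adjusted p = 0.0111 by limma). Of 16 genes of the tricarboxylic acid cycle, which oxidises acetyl groups in mitochondria, 5 were higher and 1 lower. That was a share of 37.5% called, with a median log2 difference of 0.06. Sucla2 had 1346, 1258 and 1510 in Spdef -/-, against 914, 842 and 851 in Spdef +/+ (adjusted p = 0.00294 by limma), and citrate synthase, Cs, had 4176, 3976 and 4088 in Spdef -/-, against 3166, 3323 and 3037 in Spdef +/+ (adjusted p = 0.0104 by limma). Without any 1 array, 3 to 5 genes of the cycle were higher and 0 lower. The difference between this list and the members was not tested.

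In other branches of glucose metabolism, as among all tested genes (15.8% higher and 24.0% lower), lower calls outnumbered higher ones. Of 10 pentose phosphate genes 1 was higher and 2 lower, among them H6pd, the hexose 6-phosphate dehydrogenase of the endoplasmic reticulum, with 590, 548 and 619 in Spdef -/-, against 1012, 1057 and 971 in Spdef +/+ (adjusted p = 0.00101 by limma). G6pdx, the entry enzyme of the cytosolic pathway and named after its values were seen, had a log2 difference of -0.09 (adjusted p = 0.355 by limma). Of 3 gluconeogenesis genes tested, 0 were higher and 2 lower, with G6pc3, a glucose 6-phosphatase, at 206, 227 and 174 in Spdef -/-, against 332, 315 and 317 in Spdef +/+ (adjusted p = 0.00479 by limma). Among 14 genes of glycogen and sugar nucleotides 1 was higher and 4 lower. Pygb, a glycogen phosphorylase, had 790, 722 and 726 in Spdef -/-, against 1279, 1178 and 1219 in Spdef +/+ (adjusted p = 0.00121 by limma), and Gyg, the primer of glycogen, had 612, 678 and 582 in Spdef -/-, against 899, 957 and 996 in Spdef +/+ (adjusted p = 0.00326 by limma).

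Of 25 regulators of glycolysis tested, 3 were higher and 3 lower, a share of 24.0% called against 39.7% of all tested genes. Hif1a, the oxygen-regulated transcription factor of many glycolysis genes, had 2296, 1921 and 2334 in Spdef -/-, against 1380, 1301 and 1340 in Spdef +/+, 1.62-fold higher (log2 difference 0.70 ± 0.10, SE, adjusted p = 0.00276 by limma). Myc, another activator of these genes, had 373, 388 and 334 in Spdef -/-, against 156, 271 and 315 in Spdef +/+ and did not pass (adjusted p = 0.0976 by limma), while Max, its partner, was higher (log2 difference 0.45, adjusted p = 0.00604 by limma). Txnip, an inhibitor of glucose uptake, had 5345, 5922 and 6660 in Spdef -/-, against 10124, 8011 and 6589 in Spdef +/+. Its groups overlapped, and it did not pass (adjusted p = 0.0789 by limma), though it did without Spdef +/+ replicate 3 (adjusted p of Txnip 0.0342). Ppargc1a, a coactivator of mitochondrial genes, had 143, 133 and 121 in Spdef -/-, against 354, 335 and 292 in Spdef +/+ (log2 difference -1.30, adjusted p = 0.000501 by limma).

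Of 14 hypoxia-inducible genes outside glycolysis, 2 were higher and 4 lower, a share of 42.9% called against 39.7% of all tested genes. Their median log2 difference was -0.29. Bnip3, a mitophagy receptor, had 156, 174 and 150 in Spdef -/-, against 396, 504 and 325 in Spdef +/+ (log2 difference -1.33, adjusted p = 0.00177 by limma). P4ha2, a collagen prolyl hydroxylase, had 358, 431 and 392 in Spdef -/-, against 562, 568 and 506 in Spdef +/+ (adjusted p = 0.0109 by limma). Higd1a, a mitochondrial protein gene, had 1357, 1330 and 1504 in Spdef -/-, against 921, 1007 and 865 in Spdef +/+ (adjusted p = 0.00429 by limma). The other higher gene, Ankrd37, was named after its values were seen. It had 78.6, 245 and 86.5 in Spdef -/-, against 41.4, 28.8 and 33.1 in Spdef +/+ (log2 difference 1.80, adjusted p = 0.0181 by limma). Egln3, a HIF prolyl hydroxylase counted among the regulators, was higher on its brightest probe set (log2 difference 0.53, adjusted p = 0.00948 by limma) and had a difference of -0.07 on the mean of its probe sets.

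Small list counts moved with single arrays. Without any 1 array, the hypoxia-inducible list had 2 to 7 genes lower (7 without Spdef -/- replicate 2, 2 without Spdef +/+ replicate 1), the regulators 1 to 4 lower, and the pyruvate list 1 to 3 higher. Over the same fits, other glycolysis enzymes had 1 to 3 lower, other transporters and hexokinases 1 to 3 higher and 1 to 2 lower, monocarboxylate transport 0 to 1 higher, pentose phosphate genes 0 to 1 higher and 1 to 2 lower, gluconeogenesis 1 to 2 lower, glycogen genes 0 to 2 higher, and the hypoxia-inducible list 1 to 2 higher.

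The cell cycle list was higher in 22 of 23 tested genes and lower in 0, with a median log2 difference of 1.70. Mki67, a marker of cycling cells, had 1050, 1080 and 2131 in Spdef -/-, against 359, 301 and 367 in Spdef +/+ (log2 difference 1.98, adjusted p = 0.00273 by limma). Spdef -/- replicate 3, which had the highest Mki67, was the highest of its group on all 3 Pgk1 probe sets, Hk1 (1437974_a_at), Aldoa (1416921_x_at), Pkm and Pgam1. It was the lowest of its group for Hk2, Pfkl (1439148_a_at), Pfkfb3, Eno1, Gapdh (1418625_s_at) and Ldha, and neither for Slc2a1 (1434773_a_at). Pfkp (1416069_at) had 510, 531 and 510 in Spdef -/-. The rank of replicate 3 depended on the probe set. It was the lowest of its group on Aldoa 1439375_x_at, 1434799_x_at and 1447734_x_at, on Hk1 1420901_a_at and on Slc2a1 1426600_at. On Pfkl 1453541_at it was the highest. Among the tested member probe sets the log2 difference was at most 0.88. With centring on bacterial controls, the cell cycle count was 21 and that of the tricarboxylic acid cycle 0 higher, and the calls of Pkm, Pfkm, Hif1a, Egln3, Max, Dld, Sucla2, Cs, Gyg, P4ha2 and Higd1a were lost (adjusted p from 0.0633 for Gyg to 0.585 for Cs). Their directions were unchanged under that centring, with log2 differences of 0.63 for Pkm, 0.61 for Hif1a, 0.57 for Sucla2 and 0.45 for Egln3.

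**Figure D4:**
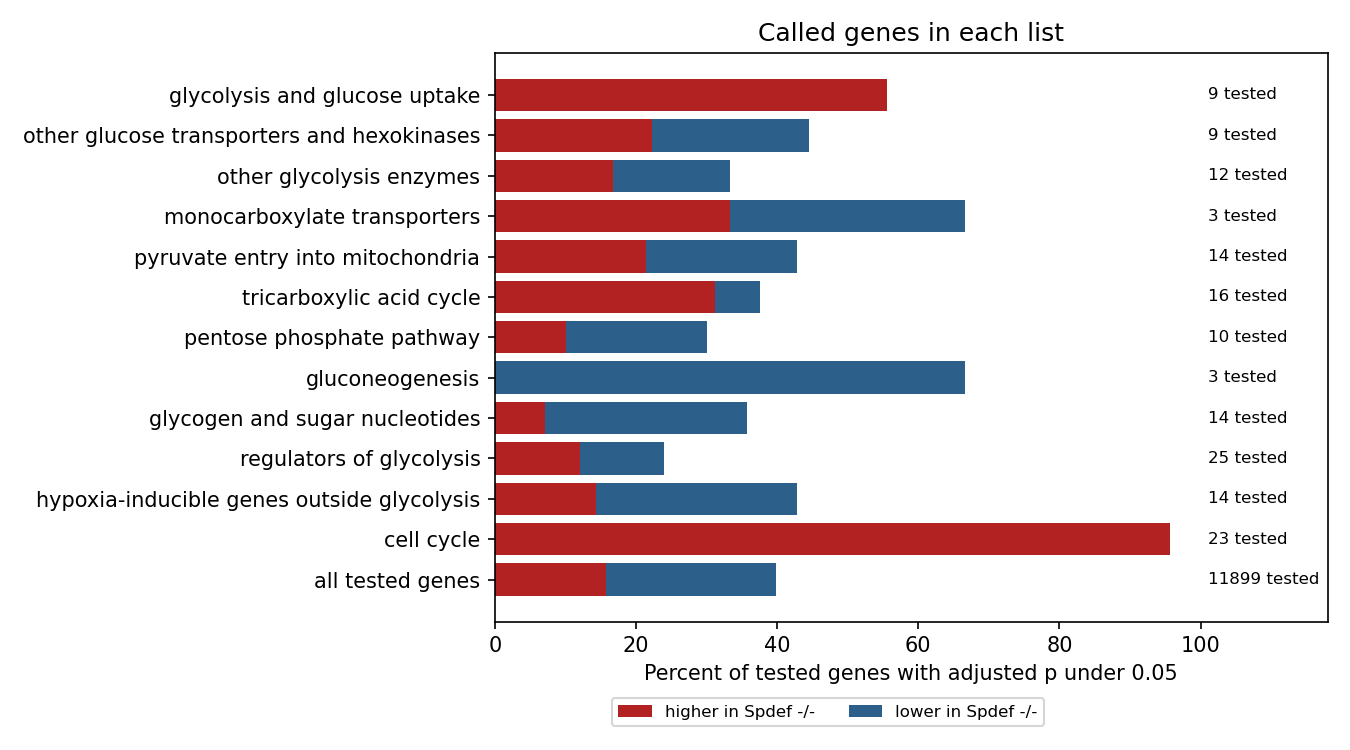
Share of tested genes in each list that were called higher or lower in Spdef -/- (percent, limma adjusted p under 0.05), with all 11899 tested genes at the bottom. The cell cycle list shows 22 of 23 higher, and the 9 tested glycolysis and glucose uptake genes 5 higher and 0 lower.

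For the 3 members with the smallest p in the fit across genes, the 2 named genes with the most similar profile were found, by the root mean square distance of log2 signals centred on their mean over the 6 arrays. For Pfkp these were Dcaf4 (distance 0.0172) and Stk40 (0.0229). Those nearest to Eno1 were Coro2a (0.0198) and Eno1b (0.0264), whose probe sets may share signal with Eno1. Closest to Ldha were Morf4l2 (0.0262) and Psmc6 (0.0316). Distances are in log2 units among 11899 genes.

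Markers of other cell types also differed between the genotypes, and their part in the results above was not tested. Of 7 goblet cell markers all 7 were tested and lower, and their summed signal was 1303 to 1722 in Spdef -/- and 30727 to 36612 in Spdef +/+. That list includes Spdef, the targeted gene itself. Muc5ac, Muc5b, Spdef, Foxa3 and Ern2 were Present on no Spdef -/- array, so they passed the filter through Spdef +/+ alone. Neutrophil markers were higher in 4 of 4 tested, with sums of 9642 to 16998 in Spdef -/- and 671 to 832 in Spdef +/+. Ltf, S100a9 and S100a8 made up most of the Spdef -/- sums (means of 6532, 3456 and 1927). Csf3r averaged 198 in Spdef -/-, was Present on no Spdef +/+ array and passed the filter through Spdef -/- alone. Whether these signals came from neutrophils or from other cells was not tested. Cxcr2, Mpo and Elane were Present on no array, with means of 76.8, 12.6 and 3.06 in Spdef -/- against 6.39, 35.8 and 3.01 in Spdef +/+. Of 8 markers of conjunctival epithelium 5 were higher and 0 lower, with sums of 83542 to 92250 in Spdef -/- and 67723 to 68730 in Spdef +/+. Stroma and endothelium markers were lower in 4 of 6 tested, with sums of 16250 to 19171 in Spdef -/- and 25783 to 39215 in Spdef +/+. Of 10 skeletal muscle markers, which mark a tissue rich in Eno3 and Pfkm, 3 were tested and 1 was higher. Their sums were 451 to 487 in Spdef -/- and 308 to 845 in Spdef +/+, and Ckm and Myh2 were Present on no array. The higher marker was Tnni2, with means of 194 in Spdef -/- and 104 in Spdef +/+. The other tested markers, Acta1 and Myh1, had log2 differences of 0.05 and -1.49 with overlapping groups. Myh1 read 42.5, 24.2 and 5.53 in Spdef -/-, against 13.1, 48.5 and 200 in Spdef +/+. Spdef +/+ replicate 3 was the highest of its group for Myh1, Acta1, Tnni2 and Eno3. Macrophage and dendritic cell markers (7 tested, 1 higher, 1 lower) had sums of 2528 to 3109 in Spdef -/- and 2086 to 3536 in Spdef +/+. For T cells 2 of 4 tested were higher (sums of 269 to 369 in Spdef -/- and 193 to 233 in Spdef +/+), and for B cells 3 of 3 (sums of 391 to 537 in Spdef -/- and 146 to 177 in Spdef +/+). The T cell markers Cd3d and Cd3g were Present on no Spdef +/+ array and passed the filter through Spdef -/- alone. Of corneal epithelium 0 of 3 were called (13803 to 16732 in Spdef -/- and 18505 to 23035 in Spdef +/+), and of lid epidermis 1 of 2 was higher and 1 lower (644 to 734 in Spdef -/- and 651 to 671 in Spdef +/+).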

How the data were processed

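Total RNA of laser-captured conjunctival epithelium was hybridised to Affymetrix arrays, 3 of Spdef -/- and 3 of Spdef +/+ mice. The deposited intensity values are dChip signals of each probe set, per the file headers, and their scale is linear with similar medians on all arrays. The sources used here do not give dChip's normalization or background settings or what made the other deposited values, the Present, Marginal or Absent calls. The authors' deposited comparison table gives a signed fold score and an unadjusted p-value for 153 probe sets and held 0 of the 30 member probe sets. Its name gives cuts on fold, at 3-fold, and on p. No member probe set differed by 3-fold here, so their absence says nothing of smaller differences. The second deposited table of intensity values had 0 values that differed from the first.

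Probe sets took symbols from the mouse gene table of assembly GRCm38.p6 by gene ID (36239), by the 1 of several IDs found there (609) or by accession (61); 585 matched several genes, 7543 none, and 64 were controls. Log2 was taken after raising signals to at least 1. Tests used limma 3.58.1 under R 4.3.3 (eBayes on a linear model with genotype alone, 2-sided, Benjamini-Hochberg over all 24533 probe sets or 11899 genes tested, threshold 0.05). The fit was tested on simulated data. Members, lists, naming rule and tests were chosen with earlier results of these data known. The genes named are Spdef, all members, up to 4 called genes per list, by p (or else the 2 brightest), 8 fixed genes (Gapdh, Pkm, Hif1a, Myc, Txnip, Slc16a1, Slc16a3 and Mki67) and the nearest profiles, of which a part is described. Replicates are called biological in the labels. The number of arrays limits the precision. Alternatives covered the filter, scaling, floor (16), pseudocount (32), eBayes with trend and robust, probe set choice, naming, the replicate number as a block and leaving out each array.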

Additional observations from a re-analysis of the deposited data

How the results depend on the processing

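The count of higher member genes (5) was 3 with no filter on detection calls, 0 with centring on bacterial controls and 2 to 4 without any 1 array, and that of higher member probe sets (9) was 5, 2 and 6 to 9 under the same settings. No member gene or probe set was called lower under any alternative run. The labels state no pairing of arrays by replicate number. Deviations of same-numbered arrays from their group means correlated at -0.09 to -0.013, and those of other pairs at -0.0303 to 0.092. With 3 arrays per group, such values cannot decide whether arrays shared a batch. With the replicate block 4 member genes and 8 member probe sets were higher. Quantile normalization, centring on array medians, a mean signal filter, a floor of 16, a pseudocount of 32, and eBayes with trend and robust left each of these counts within 1.5 times. Naming past pseudogenes did so for the count of member genes and was not run across probe sets. Centring on array medians gave 2414 genes higher and 2267 lower (51.6% of calls higher), against 1878 and 2850 (39.7%) without it, and the median difference of all genes was -0.149 with centring on bacterial controls and -0.06 without. Some differences near 0 changed sign, with no call on either side. Aldoa and its probe set 1416921_x_at, at 0, had -0.05 with quantile normalization, -0.09 with centring on bacterial controls and -0.06 to 0.05 without any 1 array, and Aldoa -0.01 on the mean of probe sets. The other Aldoa probe sets 1433604_x_at and 1447734_x_at had -0.08 with bacterial controls, and without any 1 array -0.02 to 0.02 and -0.05 to 0.04. Probe sets 1434799_x_at and 1439375_x_at of Aldoa and 1436822_x_at of Hk1 had 0.04, 0.05 and 0.01 with centring on medians, and 1434799_x_at had -0.08 to 0.03 and 1439375_x_at -0.10 to 0.03 without any 1 array. On the mean of probe sets the called genes Egln3 and Prps2 had -0.07 and 0.15. The cause was not tested. Signal over background limits the 6 dim member probe sets that were not tested.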
